A study of Caenorhabditis elegans with 46 samples.

Results

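DRM, known as DREAM in mammals, is a transcriptional repressor complex that holds a set of cell cycle genes down in non-dividing cells, and genes for DNA replication, DNA repair, and meiosis are among its best known targets. The sites described here are those that the study assigned to a target gene of one of these kinds, with genes chosen by the start of their names, such as *mcm-*, *rfc-*, *rad-*, and *syp-*. The study's list of DRM target genes held 40 such genes with 42 sites, of 1418 DRM sites in all, and *fcd-2* was the only gene among them with more than 1 site. Of the 35 name starts searched, 7 matched no gene name in that list, among them *orc-*, *htp-*, and *rec-*. The list also holds genes under sequence names such as Y41E3.8, which a name start cannot match. The gene *psf-1* came in by its name, but its identifier carries the symbol *nono-1* in the reference names, so its role is not described. It was grouped with the licensing genes by its name, and the count of that group is given without it.

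The study asked how DRM assembles on chromatin when its pocket protein is missing. Each peak list came from *C. elegans* late embryos, either of wild type (strain N2, Bristol) or of *lin-35(n745)*, a null allele for the LIN-35 protein, here called *lin-35* null. Wild-type worms had been grown for 72 h and *lin-35* null worms for 96 h before embryos were collected and aged for up to 3.5 h. Lists of 7 subunits were available for wild type and of 6, all but LIN-35, for *lin-35* null. Most lists combined 3 libraries, wild-type LIN-35 had 2, and wild-type LIN-37 had 1 in this series. Embryos were frozen and crosslinked for 10 min in 1% formaldehyde in both genotypes. Most wild-type libraries came from an older procedure with size selection on gels, while every *lin-35* null library came from a newer one, and the wild-type LIN-37 list also drew on a library from earlier work. Genotype, growth time, and library protocol therefore cannot be told apart in what follows. Peak lists carry no expression values, so the stage could not be checked against marker genes.

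Before cells divide, each chromosome must be copied exactly once. Origins are licensed when CDC-6 and CDT-1 load the ring-shaped MCM helicase onto DNA, primase starts each new strand, the clamp PCN-1 (PCNA) and its loader RFC keep the polymerases on the template, and ribonucleotide reductase supplies the nucleotides. Breaks are sensed by the MRE-11 and RAD-50 proteins, cut back by nucleases, and repaired by the recombinase RAD-51 with BRC-1 and BRD-1 (the worm BRCA1 and BARD1), and in meiosis the same machinery joins with the synaptonemal complex to make crossovers. In DRM, the E2F-DP pair (EFL-1 and DPL-1) and the MuvB core (LIN-9, LIN-37, LIN-52, LIN-54, and the subunit LIN-53, for which no list was used here) each contact DNA, and the pocket protein LIN-35 bridges them.

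A peak is a stretch of DNA where sequenced fragments pulled down with an antibody exceed the input, and its signal value is the measure of height given by the peak caller. Signal values of different lists are not on a shared scale, so heights were compared as percentiles of a list, in which the tallest peak stands at 100. The *lin-35* null lists held 783 to 1674 peaks and the wild-type lists 1771 to 2291, so a peak at the same rank from the top has a lower percentile in *lin-35* null, and differences between genotypes were also ranked among shared sites, meaning DRM sites with a peak of the same subunit in both genotypes. A percentile is a place within a list and not an amount of binding, so a higher percentile in *lin-35* null does not mean more binding. The study reported that binding of E2F-DP and MuvB fell across the genome in *lin-35* null. A site is 500 bp long and has a peak of a subunit when they overlap by at least 1 bp. The lists hold neither read counts nor values of single replicates, so the depth is unknown, no error can be attached to a percentile, and no test was made. Sites are not replicates, and their counts are set beside the same counts over all 1418 DRM sites as a description.

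In wild type, 41 of the 42 sites (97.6%) had peaks of all 7 subunits, where the share over all DRM sites was 94.9%. The exception was *cdc-6*, which had no LIN-54 peak. The wild-type height of a site, taken as its mean percentile in the lists with a peak there, ranged from 20.9 at *cdc-6* to 99.2 at *lem-3*, and the median was 77.3, against 65.8 over all DRM sites. Of the 42 sites, 30 lay in the upper 50% of all DRM sites by this mean. Summits of the subunits lay close together. Their spread over the lists had a median of 18 bp, against 22 bp over all DRM sites, and ran from 2 bp at *atm-1* to 100 bp at the intron site of *fcd-2*. Between DPL-1 of E2F-DP and LIN-54 of MuvB, which both bind DNA, the median distance was 3 bp, against 5 bp over all DRM sites.

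Most of the sites were promoters that face 2 genes. A bidirectional promoter was recorded for 26 sites, a promoter of a single gene for 14, an intron for 1, and the end of a transcript for 1, at *exo-3*. At a bidirectional promoter, a peak cannot be assigned to one of the genes. The second gene was, for example, *npp-3* at *top-2*, *hcp-2* at *atl-1*, *eef-1A.1* at *rfc-4*, *rps-22* at *polh-1*, and *polq-1* at *him-10*. It was W02D9.2 at *pri-2*, F56C11.3 at *atm-1*, *acs-19* at *brc-1*, and R07E5.7 at *cku-80*. By chromosome, 13 sites were on III, 12 on I, 8 on V, 6 on IV, 3 on II, and 0 on X, where the 1418 DRM sites had 328, 321, 211, 246, 259, and 53.

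In *lin-35* null, 23 of the 42 sites (54.8%) were retained, meaning that DPL-1, EFL-1, and 3 or 4 of the MuvB subunits with lists had a peak there, and the share over all DRM sites was 43.4%. All 23 had peaks of all 6 subunits, against 40.6% over all DRM sites. Peaks of 1 to 5 subunits were found at 7 sites (16.7%), against 32.7%. No peak of any subunit was found at 12 sites (28.6%), against 26.7%. Without *psf-1*, 23 of 41 sites were retained and 11 had no *lin-35* null peak, the latter near the share over all DRM sites. By subunit, the sites with a *lin-35* null peak numbered 30 for LIN-9 (71.4%, against 70.0% over all DRM sites), 30 for LIN-52 (71.4%, against 65.7%), 28 for LIN-54 (66.7%, against 62.6%), 26 for LIN-37 (61.9%, against 52%), 26 for DPL-1 (61.9%, against 56.6%), and 23 for EFL-1 (54.8%, against 46.9%). Retained sites were mostly high in wild type, with a median height of 87.7, against 61.5 for the 19 sites that were not retained. When all DRM sites were put into 4 groups of nearly equal size by wild-type height, 0 of the 5 sites of these genes in the lowest group were retained (12.96% over all DRM sites of the group), 1 of 7 in the next (23.4%), 8 of 15 in the third (53.1%), and 14 of 15 in the highest (84.2%).

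**Figure D1:**
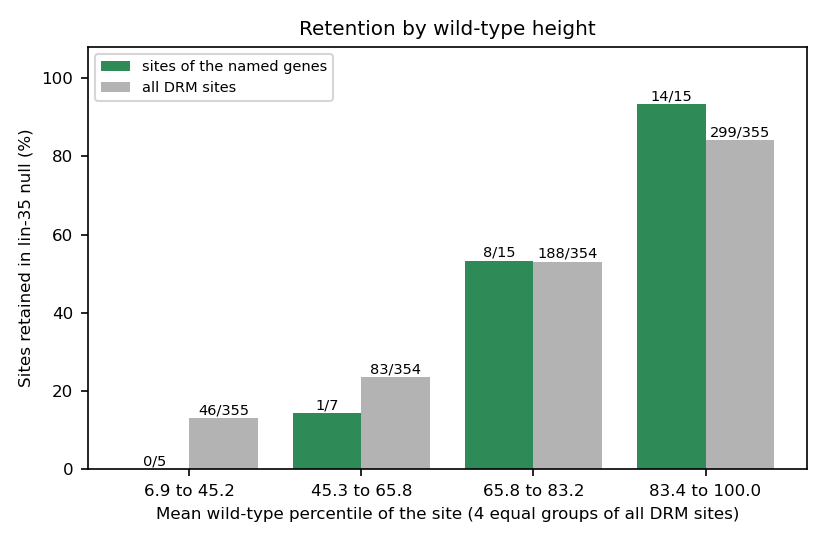
Share of sites retained in *lin-35* null (y axis, percent) in 4 groups of nearly equal size of all DRM sites by mean wild-type percentile (x axis), with the number retained over the number of sites above each bar. Green bars are the 42 sites of the replication, repair, and meiosis genes, with *psf-1* counted by its name, and grey bars are all 1418 DRM sites. Both are lowest in the lowest group and highest in the highest, from 0 of 5 to 14 of 15 and from 12.96% to 84.2%.

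By role, retention was uneven. Of the 10 licensing and initiation sites without *psf-1*, 7 were retained, among them all 6 sites of the MCM2-7 genes. The *mcm-3*, *mcm-6*, and *mcm-7* sites were bidirectional promoters that also face C25D7.15, R10E11.9, and F32D1.2. Also retained were 8 of the 11 sites of fork and nucleotide supply genes and both checkpoint kinase sites. Of the 9 sites of double-strand break repair genes, 2 were retained and 6 had no *lin-35* null peak. Over all DRM sites, 43.4% were retained and 26.7% had no *lin-35* null peak. The median of the mean wild-type percentile was 78.4 for licensing and initiation without *psf-1*, and 86.7 for its MCM2-7 genes. It was 80.9 for fork and nucleotide supply, and 70.2 for double-strand break repair. The order of the groups by height was not their order by retention, since 3 of the 6 other repair sites, with a median of 55.7, and 1 of the 3 meiosis and kinetochore sites, with a median of 68.2, were retained. The part of height in the difference between roles was not tested, and each group is small.

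**Figure D2:**
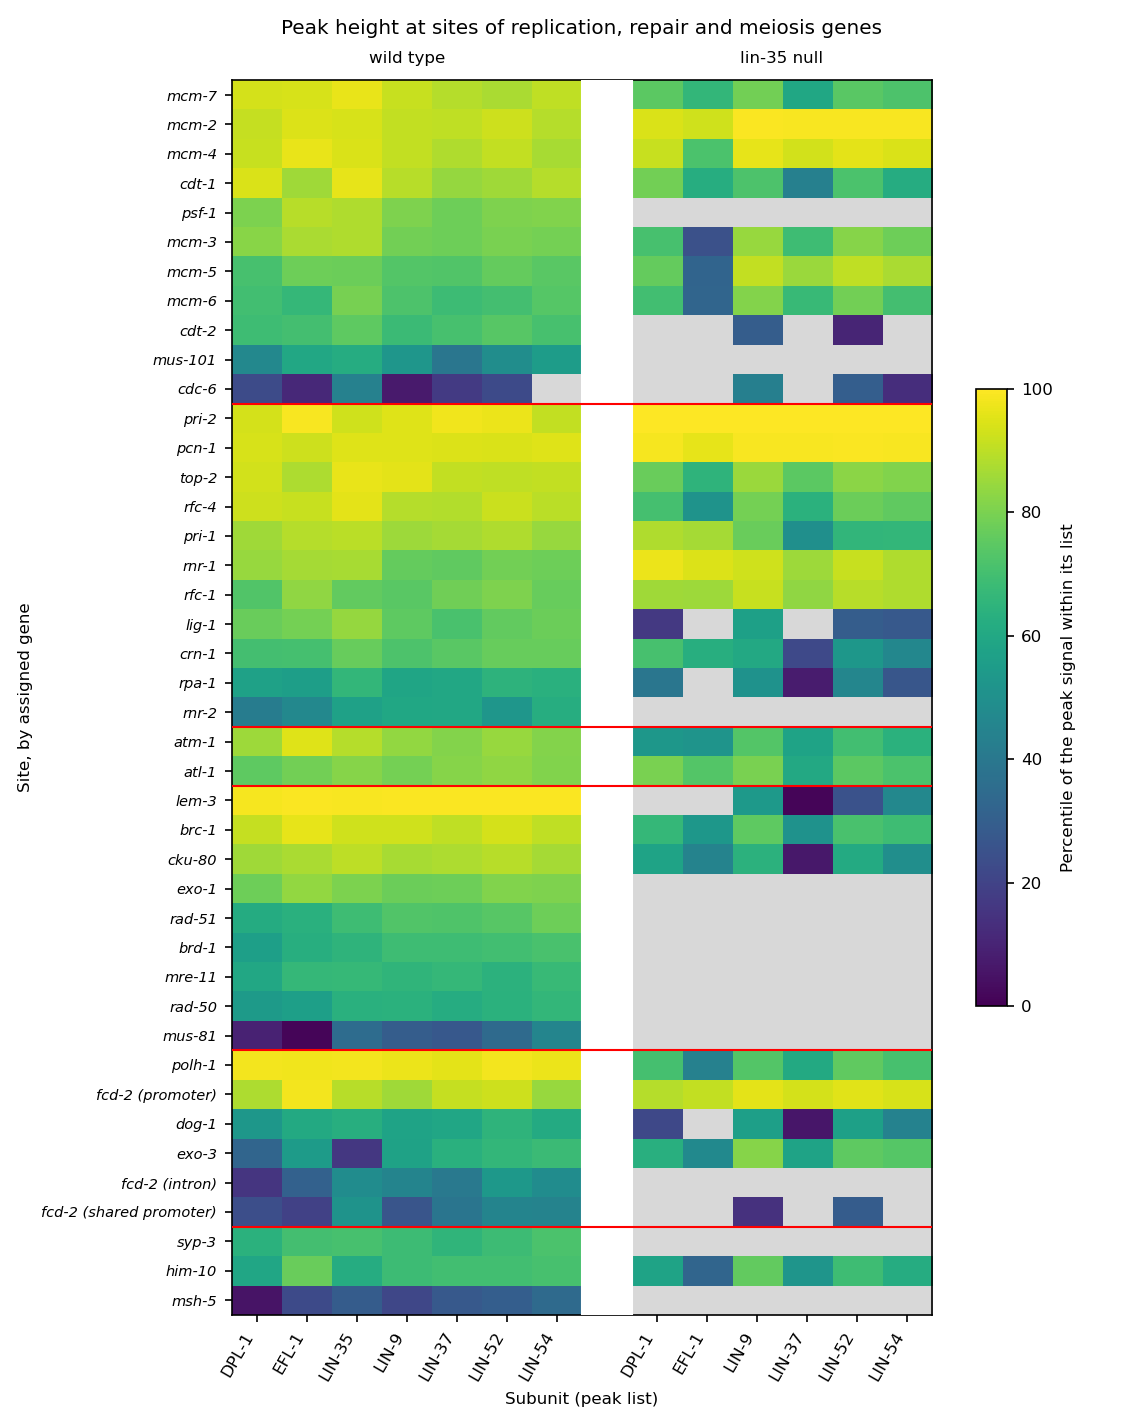
Percentile of the peak signal within its list (colour, from 0 to 100) for the 42 sites (rows) and the 13 peak lists (columns, wild type on the left and *lin-35* null on the right). Grey means no overlapping peak, and red lines part the role groups, from the top origin licensing and initiation with *psf-1*, fork and nucleotide supply, checkpoint kinases, double-strand break repair, other repair, and meiosis and kinetochore. The MCM genes, *pri-2*, and *pcn-1* are filled in every column, while *exo-1*, *rad-51*, *brd-1*, *mre-11*, *rad-50*, and *mus-81* are grey in all 6 *lin-35* null columns.

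The MCM genes encode the subunits of the replicative helicase. *mcm-7* (chromosome V from 4346751 to 4347250, ce10) was the highest of the licensing and initiation sites in wild type. At *mcm-7*, the wild-type percentiles were 96.7 for LIN-35, 93.7 for DPL-1, 93.8 for EFL-1, 90.3 for LIN-54, 87.1 for LIN-52, 89.0 for LIN-37, and 91.6 for LIN-9. The *mcm-7* percentiles in *lin-35* null were 75.0 for DPL-1, 66.2 for EFL-1, 72.0 for LIN-54, 74.4 for LIN-52, 59.8 for LIN-37, and 78.9 for LIN-9. Every *mcm-7* percentile in *lin-35* null was below that of the same subunit in wild type, also among shared sites.

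*mcm-2* (chromosome II from 12006556 to 12007055) had nearly the same mean height in wild type, 91.7 against 91.8 at *mcm-7*. At *mcm-2*, the wild-type percentiles were 93.8 for LIN-35, 91.3 for DPL-1, 94.6 for EFL-1, 88.9 for LIN-54, 92.5 for LIN-52, 90.2 for LIN-37, and 90.7 for LIN-9. The *mcm-2* percentiles in *lin-35* null were 94.3 for DPL-1, 92.8 for EFL-1, 98.9 for LIN-54, 99.1 for LIN-52, 98.9 for LIN-37, and 99.4 for LIN-9. Counted from the top of its list, the *mcm-2* peak ranked 58 for DPL-1, 57 for EFL-1, 15 for LIN-54, 13 for LIN-52, 11 for LIN-37, and 11 for LIN-9 in *lin-35* null, which places it among the tallest MuvB peaks of that genotype.

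*mcm-4* (chromosome I from 2321700 to 2322199) was as high in wild type. At *mcm-4*, the wild-type percentiles were 94.4 for LIN-35, 91.6 for DPL-1, 96.7 for EFL-1, 86.8 for LIN-54, 90.9 for LIN-52, 88.3 for LIN-37, and 91.0 for LIN-9. The *mcm-4* percentiles in *lin-35* null were 91.5 for DPL-1, 71.8 for EFL-1, 94.3 for LIN-54, 95.9 for LIN-52, 93.1 for LIN-37, and 96.2 for LIN-9. EFL-1 was well below the other subunits in *lin-35* null, and the 4 MuvB subunits stood above their wild-type percentiles.

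*mcm-3* (chromosome V from 15059480 to 15059979) and *mcm-5* (chromosome III from 4291187 to 4291686) both had LIN-9, LIN-52, and LIN-54 as the tallest subunits in *lin-35* null, with EFL-1 far below the rest. At *mcm-3*, the wild-type percentiles were 88.2 for LIN-35, 82.4 for DPL-1, 87.3 for EFL-1, 79.3 for LIN-54, 79.8 for LIN-52, 78.0 for LIN-37, and 78.9 for LIN-9. The *mcm-3* percentiles in *lin-35* null were 70.8 for DPL-1, 24.9 for EFL-1, 78.0 for LIN-54, 81.9 for LIN-52, 69.0 for LIN-37, and 84.5 for LIN-9. With peaks in the lowest 25% of their list dropped, *mcm-3* lost its EFL-1 peak in *lin-35* null and was no longer retained, the only site of the 42 for which that setting changed retention.

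At *mcm-5*, the wild-type percentiles were 77.6 for LIN-35, 70.8 for DPL-1, 77.8 for EFL-1, 74.5 for LIN-54, 76.5 for LIN-52, 73.0 for LIN-37, and 73.1 for LIN-9. The *mcm-5* percentiles in *lin-35* null were 76.5 for DPL-1, 32.1 for EFL-1, 87.3 for LIN-54, 90.3 for LIN-52, 84.8 for LIN-37, and 90.7 for LIN-9. All subunits but EFL-1 stood higher in their *lin-35* null list than in their wild-type list.

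*mcm-6* (chromosome III from 9793831 to 9794330) was the lowest MCM site in wild type. At *mcm-6*, the wild-type percentiles were 79.5 for LIN-35, 69.9 for DPL-1, 66.5 for EFL-1, 73.6 for LIN-54, 70.1 for LIN-52, 68.7 for LIN-37, and 71.9 for LIN-9. The *mcm-6* percentiles in *lin-35* null were 69.6 for DPL-1, 32.6 for EFL-1, 70.3 for LIN-54, 78.7 for LIN-52, 67.3 for LIN-37, and 81.5 for LIN-9. EFL-1 was again the lowest subunit.

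The proteins that load the helicase and those that regulate loading were less uniform. *cdt-1* (chromosome I from 3227839 to 3228338) encodes the loading factor CDT-1 and was retained. At *cdt-1*, the wild-type percentiles were 96.4 for LIN-35, 94.3 for DPL-1, 85.7 for EFL-1, 88.8 for LIN-54, 85.6 for LIN-52, 84.1 for LIN-37, and 89.1 for LIN-9. The *cdt-1* percentiles in *lin-35* null were 78.6 for DPL-1, 62.2 for EFL-1, 61.8 for LIN-54, 71.7 for LIN-52, 43.6 for LIN-37, and 72.0 for LIN-9. Each was lower than in wild type, by most for LIN-37, and each was lower among shared sites as well.

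*cdc-6* (chromosome I from 4270320 to 4270819) encodes the ATPase that loads the helicase together with CDT-1, and its promoter faces *acin-1*. It was the lowest of the 42 sites in wild type. At *cdc-6*, the wild-type percentiles were 43.8 for LIN-35, 23.0 for DPL-1, 11.7 for EFL-1, 22.4 for LIN-52, 17.01 for LIN-37, and 7.35 for LIN-9, with no LIN-54 peak. In *lin-35* null, the *cdc-6* site had peaks of LIN-9 at 43.1, LIN-52 at 29.8, and LIN-54 at 13.1 and none of the other subunits. With each wild-type list shortened to the length of its *lin-35* null counterpart, it was the only one of the 42 sites with no wild-type peak of those 6 subunits.

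*cdt-2* encodes the substrate receptor of the ubiquitin ligase that removes CDT-1 during S phase. Its wild-type percentiles ran from 68.3 to 75.3, and in *lin-35* null it had peaks of LIN-9 (29.4) and LIN-52 (10.4) only. *mus-101*, the worm TOPBP1, which helps start replication and checkpoint signalling, had wild-type percentiles from 39.3 to 62.0 and no *lin-35* null peak. Of the 10 licensing and initiation sites without *psf-1*, 7 were retained, 2 had some *lin-35* null peaks, and 1 had none. The *psf-1* site had wild-type percentiles from 77.9 to 89.1 and no *lin-35* null peak. Its mean was 82.6, and that of *mcm-3*, which had all 6, was 82.0.

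Of the fork genes, *pri-2* (chromosome I from 12531969 to 12532468) encodes the large subunit of primase and was the highest in wild type. At *pri-2*, the wild-type percentiles were 92.8 for LIN-35, 93.6 for DPL-1, 99.1 for EFL-1, 91.0 for LIN-54, 97.2 for LIN-52, 97.8 for LIN-37, and 95.2 for LIN-9. The *pri-2* percentiles in *lin-35* null were 99.8 for DPL-1, 99.6 for EFL-1, 99.9 for LIN-54, 99.9 for LIN-52, 99.9 for LIN-37, and 99.9 for LIN-9. The *pri-2* peak ranked between 2 and 4 from the top in each of the 6 *lin-35* null lists, while in the 7 wild-type lists it ranked between 21 and 207.

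*pri-1*, the catalytic subunit of the same enzyme, had wild-type percentiles between 84.8 and 89.5. The *pri-1* percentiles in *lin-35* null were 88.2 for DPL-1, 86.5 for EFL-1, 66.4 for LIN-54, 65.8 for LIN-52, 49.9 for LIN-37, and 77.1 for LIN-9. The E2F-DP subunits stood near their wild-type percentiles of 85.8 for DPL-1 and 88.8 for EFL-1, and the MuvB subunits were lower.

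*pcn-1* (chromosome IV from 4049426 to 4049925) encodes PCNA, the sliding clamp. At *pcn-1*, the wild-type percentiles were 95.3 for LIN-35, 94.1 for DPL-1, 92.5 for EFL-1, 95.1 for LIN-54, 94.5 for LIN-52, 94.7 for LIN-37, and 95.2 for LIN-9. In *lin-35* null, every subunit had a higher percentile, and the peak ranked 14 for DPL-1, 31 for EFL-1, 13 for LIN-54, 10 for LIN-52, 10 for LIN-37, and 15 for LIN-9 from the top.

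The clamp loader genes differed. *rfc-1*, the large subunit, had wild-type percentiles from 72.7 to 83.3 and *lin-35* null percentiles from 83.5 to 91.6, which do not overlap. *rfc-4*, a small subunit, had wild-type percentiles from 88.4 to 95.9 and *lin-35* null percentiles from 51.5 to 79.0, in the other direction. Both directions held among shared sites. Both sites were bidirectional promoters, with *pmp-3* at *rfc-1* and *eef-1A.1*, a translation elongation factor gene, at *rfc-4*.

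Ribonucleotide reductase makes deoxynucleotides from a large and a small subunit. *rnr-1* (chromosome III from 9228049 to 9228548), the large subunit, was retained. At *rnr-1*, the wild-type percentiles were 87.0 for LIN-35, 84.7 for DPL-1, 86.6 for EFL-1, 77.8 for LIN-54, 78.5 for LIN-52, 75.6 for LIN-37, and 76.3 for LIN-9. The *rnr-1* percentiles in *lin-35* null were 97.0 for DPL-1, 94.8 for EFL-1, 88.2 for LIN-54, 91.6 for LIN-52, 85.5 for LIN-37, and 92.7 for LIN-9, all above wild type.

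*rnr-2* (chromosome III from 4095359 to 4095858), the small subunit, was the lowest fork site in wild type and faces C03C10.7. At *rnr-2*, the wild-type percentiles were 57.1 for LIN-35, 41.9 for DPL-1, 46.6 for EFL-1, 62.4 for LIN-54, 52.4 for LIN-52, 59.9 for LIN-37, and 59.5 for LIN-9. No subunit had a *lin-35* null peak there. The genes of the 2 subunits of this enzyme were thus at opposite ends in *lin-35* null, with wild-type means of 80.9 and 54.3.

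Of the remaining fork genes, *top-2* (topoisomerase II, wild-type mean 92.3) and *crn-1* (the FEN1 flap nuclease, 74.0) were retained. *lig-1* (DNA ligase I, 77.2) had *lin-35* null peaks of 4 subunits, which were LIN-54, LIN-52, LIN-9, and DPL-1. *rpa-1* (the large subunit of the single-strand binding protein RPA, 61.0) had peaks of 5, all but EFL-1.

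Both checkpoint kinase genes were retained. *atm-1* (chromosome I from 182760 to 183259) encodes the worm ATM, which responds to double-strand breaks. At *atm-1*, the wild-type percentiles were 89.0 for LIN-35, 85.4 for DPL-1, 95.1 for EFL-1, 81.3 for LIN-54, 84.6 for LIN-52, 81.4 for LIN-37, and 83.7 for LIN-9. The *atm-1* percentiles in *lin-35* null were 52.9 for DPL-1, 51.6 for EFL-1, 63.9 for LIN-54, 69.6 for LIN-52, 58.1 for LIN-37, and 73.4 for LIN-9. All were lower than in wild type, also among shared sites, and EFL-1 by most.

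*atl-1* (chromosome V from 9645430 to 9645929) encodes the worm ATR, which responds to stalled forks. At *atl-1*, the wild-type percentiles were 81.8 for LIN-35, 75.3 for DPL-1, 78.8 for EFL-1, 80.9 for LIN-54, 83.5 for LIN-52, 81.8 for LIN-37, and 78.9 for LIN-9. The *atl-1* percentiles in *lin-35* null were 80 for DPL-1, 73.1 for EFL-1, 71.5 for LIN-54, 74.7 for LIN-52, 60.5 for LIN-37, and 79.7 for LIN-9. DPL-1 and LIN-9 were higher than in wild type and the other 4 subunits lower, but among shared sites only LIN-37 was lower.

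Among double-strand break repair genes, *lem-3* (chromosome I from 9581376 to 9581875) encodes a nuclease that cuts chromatin bridges and recombination intermediates. It was the highest of all 42 sites in wild type. At *lem-3*, the wild-type percentiles were 99.0 for LIN-35, 98.8 for DPL-1, 99.3 for EFL-1, 99.5 for LIN-54, 99.3 for LIN-52, 99.4 for LIN-37, and 99.3 for LIN-9. In *lin-35* null, it had no DPL-1 or EFL-1 peak, and its MuvB percentiles were 46.8 for LIN-54, 25.1 for LIN-52, 1.29 for LIN-37, and 54.1 for LIN-9. Of the 36 DRM sites with a wild-type mean of 98 or more, 6 were not retained, *lem-3* among them. Of the 10 sites described here with a wild-type mean of 90 or more, 9 were retained, with *lem-3* the exception, and over all DRM sites of this height 181 of 204 were retained.

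*brc-1* and *cku-80* were the 2 retained sites of this group. *brc-1* (BRCA1) had wild-type percentiles from 90.3 to 96.4 and *lin-35* null percentiles from 50.8 to 75.1. *cku-80*, a Ku subunit of end joining, had wild-type percentiles from 85.8 to 89.9 and *lin-35* null percentiles from 6.47, for LIN-37, to 64.2, for LIN-9.

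The partner of BRC-1 was not retained. *brd-1* (BARD1) had wild-type percentiles from 56.3 to 71.3, and no subunit had a *lin-35* null peak at its promoter, which faces K04C2.2. The same held for *mre-11* (60.0 to 67.3 in wild type) and *rad-50* (54.4 to 66.2), the nuclease and the ATPase of the break-sensing complex.

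*rad-51* (chromosome IV from 10284362 to 10284861) encodes the strand exchange recombinase. At *rad-51*, the wild-type percentiles were 68.9 for LIN-35, 61.5 for DPL-1, 63.7 for EFL-1, 77.9 for LIN-54, 74.1 for LIN-52, 72.5 for LIN-37, and 72.8 for LIN-9. In *lin-35* null, it had no peak of any subunit, and *mcm-6*, with a wild-type mean of 71.5 against 70.2 at *rad-51*, had all 6. *exo-1*, the resection nuclease, also had none. Its wild-type mean of 79.9 lay beside those of *atl-1* (80.1) and *rnr-1* (80.9), which had all 6. These sites were in the third of the 4 groups by wild-type height. There, 188 of 354 DRM sites were retained and 65 had no *lin-35* null peak.

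*mus-81* (chromosome I from 4265727 to 4266226) encodes a nuclease that resolves recombination intermediates and was the lowest of this group. At *mus-81*, the wild-type percentiles were 35.4 for LIN-35, 9.49 for DPL-1, 1.27 for EFL-1, 45.5 for LIN-54, 34.8 for LIN-52, 27.6 for LIN-37, and 29.7 for LIN-9. No *lin-35* null peak was found. The MuvB percentiles stood a mean of 29.0 above the E2F-DP percentiles in wild type, against a median of 0.635 over the 42 sites and 3.72 over all DRM sites. The *mus-81* and *cdc-6* sites began 4593 bp apart on chromosome I.

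**Figure D3:**
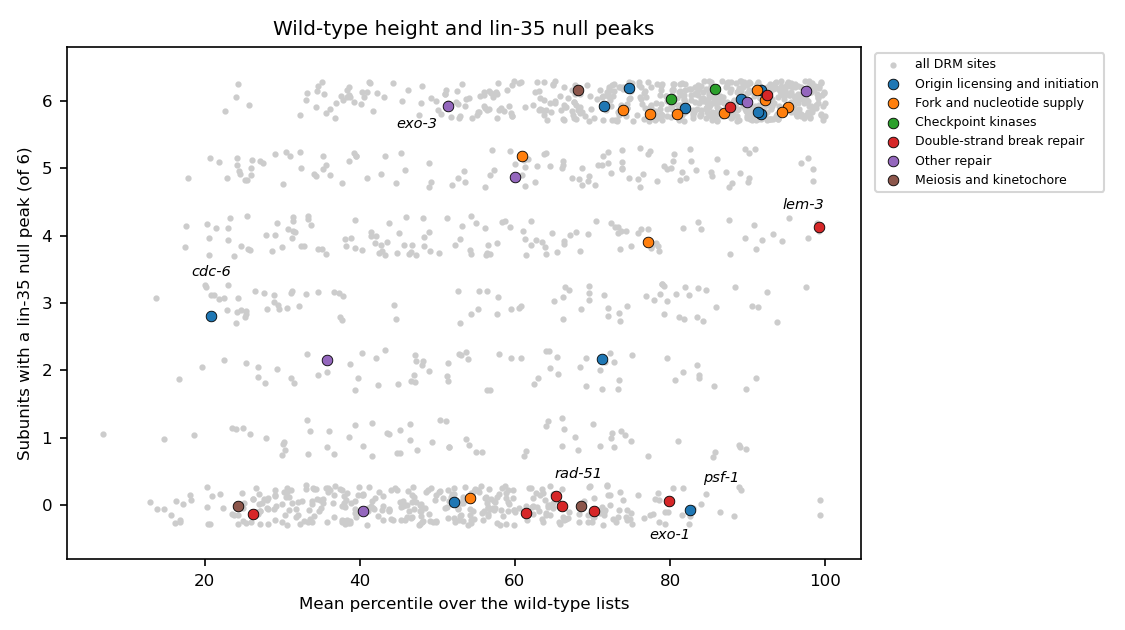
Wild-type height as the mean percentile (x axis) and number of the 6 subunits with a *lin-35* null peak (y axis, points spread vertically within each number), for the 42 sites coloured by role and for all 1418 DRM sites in grey. *psf-1* is coloured with the licensing genes. *lem-3*, the highest of the 42 sites in wild type at 99.2, had peaks of 4 subunits, and *exo-1* and *psf-1*, at 79.9 and 82.6, had none.

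Among other repair genes, *polh-1* (chromosome III from 1950155 to 1950654) encodes DNA polymerase eta, which copies past damaged bases, and its promoter faces the ribosomal protein gene *rps-22*. At *polh-1*, the wild-type percentiles were 98.4 for LIN-35, 98.4 for DPL-1, 97.8 for EFL-1, 97.0 for LIN-54, 98.1 for LIN-52, 96.0 for LIN-37, and 97.0 for LIN-9. The *polh-1* percentiles in *lin-35* null were 70.6 for DPL-1, 44.1 for EFL-1, 70.8 for LIN-54, 75.6 for LIN-52, 60.7 for LIN-37, and 73.2 for LIN-9. The site was retained, and every subunit was lower than in wild type, also among shared sites.

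*fcd-2* encodes the worm FANCD2, which acts in the repair of DNA crosslinks, and had 3 sites on chromosome IV. The promoter site (chromosome IV from 15025307 to 15025806) was the tallest. At the *fcd-2* promoter, the wild-type percentiles were 89.3 for LIN-35, 87.7 for DPL-1, 98.3 for EFL-1, 84.6 for LIN-54, 92.3 for LIN-52, 91.2 for LIN-37, and 85.6 for LIN-9. In *lin-35* null, the percentiles at the *fcd-2* promoter were 89.0 for DPL-1, 90.7 for EFL-1, 94.0 for LIN-54, 95.5 for LIN-52, 93.7 for LIN-37, and 95.9 for LIN-9. It was retained, with EFL-1 the only subunit below its wild-type percentile.

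The intron site of *fcd-2* (chromosome IV from 15027741 to 15028240) began 2434 bp further along. At the *fcd-2* intron, the wild-type percentiles were 48.5 for LIN-35, 15.6 for DPL-1, 31.2 for EFL-1, 48.6 for LIN-54, 53.2 for LIN-52, 40.5 for LIN-37, and 44.9 for LIN-9. No subunit had a *lin-35* null peak there.

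The bidirectional promoter recorded for *fcd-2* and Y41E3.8 (chromosome IV from 15028754 to 15029253) began 1013 bp beyond the intron site and was the lowest of the other repair group. At the *fcd-2* bidirectional promoter, the wild-type percentiles were 51.5 for LIN-35, 24.2 for DPL-1, 19.4 for EFL-1, 44.9 for LIN-54, 45.0 for LIN-52, 39.0 for LIN-37, and 26.3 for LIN-9. In *lin-35* null, it had peaks of LIN-9 at 14.2 and LIN-52 at 29.3 only. The 3 sites of this gene thus had 6, 0, and 2 subunits with a *lin-35* null peak, in the order of their positions.

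*dog-1*, the FANCJ helicase that unwinds structures in G-rich DNA, had *lin-35* null peaks of 5 subunits, all but EFL-1, and a LIN-37 percentile of 6.04. *exo-3*, an AP endonuclease of base excision repair, had the only site of the 42 recorded at the end of a transcript. At *exo-3*, the wild-type percentiles were 16.2 for LIN-35, 32.7 for DPL-1, 55.0 for EFL-1, 68.3 for LIN-54, 66.3 for LIN-52, 63.3 for LIN-37, and 57.8 for LIN-9. The *exo-3* percentiles in *lin-35* null were 63.1 for DPL-1, 47.4 for EFL-1, 73.6 for LIN-54, 75.0 for LIN-52, 57.8 for LIN-37, and 81.8 for LIN-9. The wild-type LIN-35 percentile of 16.2 was the lowest of the 42 sites, and *exo-3* was the only retained site in the second lowest of the 4 groups by wild-type height.

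The meiosis and kinetochore group had 3 sites. *syp-3* (chromosome I from 8664598 to 8665097) encodes a structural protein of the synaptonemal complex, which holds homologous chromosomes together. At *syp-3*, the wild-type percentiles were 71.0 for LIN-35, 64.0 for DPL-1, 70.1 for EFL-1, 71.6 for LIN-54, 68.6 for LIN-52, 65.5 for LIN-37, and 68.6 for LIN-9. All 6 subunits lacked a *lin-35* null peak there.

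*msh-5* (chromosome IV from 13154220 to 13154719) encodes a MutS-family protein needed for crossovers. At *msh-5*, the wild-type percentiles were 29.1 for LIN-35, 5.14 for DPL-1, 22.5 for EFL-1, 34.5 for LIN-54, 29.9 for LIN-52, 28.1 for LIN-37, and 21.1 for LIN-9. It had no *lin-35* null peak either. *him-10*, a subunit of the NDC80 kinetochore complex, was retained, with wild-type percentiles from 59.1 to 77.0 and *lin-35* null percentiles from 32.4 to 76.2, at a promoter that also faces the DNA polymerase theta gene *polq-1*.

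The 7 sites with peaks of 1 to 5 subunits in *lin-35* null were *rpa-1* and *dog-1* with 5, *lig-1* and *lem-3* with 4, *cdc-6* with 3, and *cdt-2* and the *fcd-2* bidirectional promoter with 2. All 7 had LIN-9 and LIN-52 peaks, 5 had LIN-54, 3 had DPL-1, 3 had LIN-37, and 0 had EFL-1. Over all DRM sites of this kind, the shares were 89.7% for LIN-9, 76.5% for LIN-52, 67.0% for LIN-54, 48.7% for DPL-1, 34.9% for LIN-37, and 19.2% for EFL-1. These shares follow the lengths of the *lin-35* null lists, which were 1674, 1388, 1225, 995, 927, and 783 peaks in the same order. With every *lin-35* null list shortened to 783 peaks, an alternative chosen after seeing the data, the shares ran from 45.7% to 53.7%, and the sites with 1 to 5 subunits were *rpa-1*, *dog-1*, *lig-1*, *lem-3*, and *cku-80*.

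The difference in length between the genotypes bears on the percentiles. Over the 30 sites with a peak of at least 1 subunit in both genotypes, the median difference in percentile, *lin-35* null minus wild type, was -13.97, against -12.5 over all DRM sites. With the wild-type lists shortened to the *lin-35* null lengths, it reversed to 3.83, against 3.45. Ranks were therefore also compared among shared sites only, a setting chosen after seeing the data, and there the median difference was -0.02, against 1.28. Each subunit was then ranked within the same sites in both genotypes, so rises and falls balance over all those sites by construction. Such ranks show only the order of sites relative to each other.

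Among shared sites, 7 of the 23 retained sites (30.4%) stood higher in *lin-35* null for all 6 subunits, against 41.2% of the 568 DRM sites with a peak of all 6 subunits in both genotypes. They were *mcm-2*, *mcm-6*, *pri-2*, *pcn-1*, *rnr-1*, *rfc-1*, and *exo-3*. Another 8 (34.8%, against 27.6%) stood lower for all 6, namely *mcm-7*, *cdt-1*, *top-2*, *rfc-4*, *atm-1*, *brc-1*, *cku-80*, and *polh-1*. The mean difference over the subunits was highest at *exo-3* (33.9), *rnr-1* (33.7), and *rfc-1* (32.5), and lowest at *polh-1* (-37.6), *cku-80* (-33.1), and *brc-1* (-27.7). Percentiles are bounded, so a low start leaves more room to rise and a high start more room to fall. The wild-type means among shared sites were 23.3 at *exo-3*, 54.7 at *rnr-1*, and 50.4 at *rfc-1*. They were 93.7 at *polh-1*, 69.6 at *cku-80*, and 81.7 at *brc-1*, but also 89.8 at *pri-2*, which stood higher in *lin-35* null. The MCM genes were on both sides, from 28.1 at *mcm-5* to -16.1 at *mcm-7*.

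**Figure D4:**
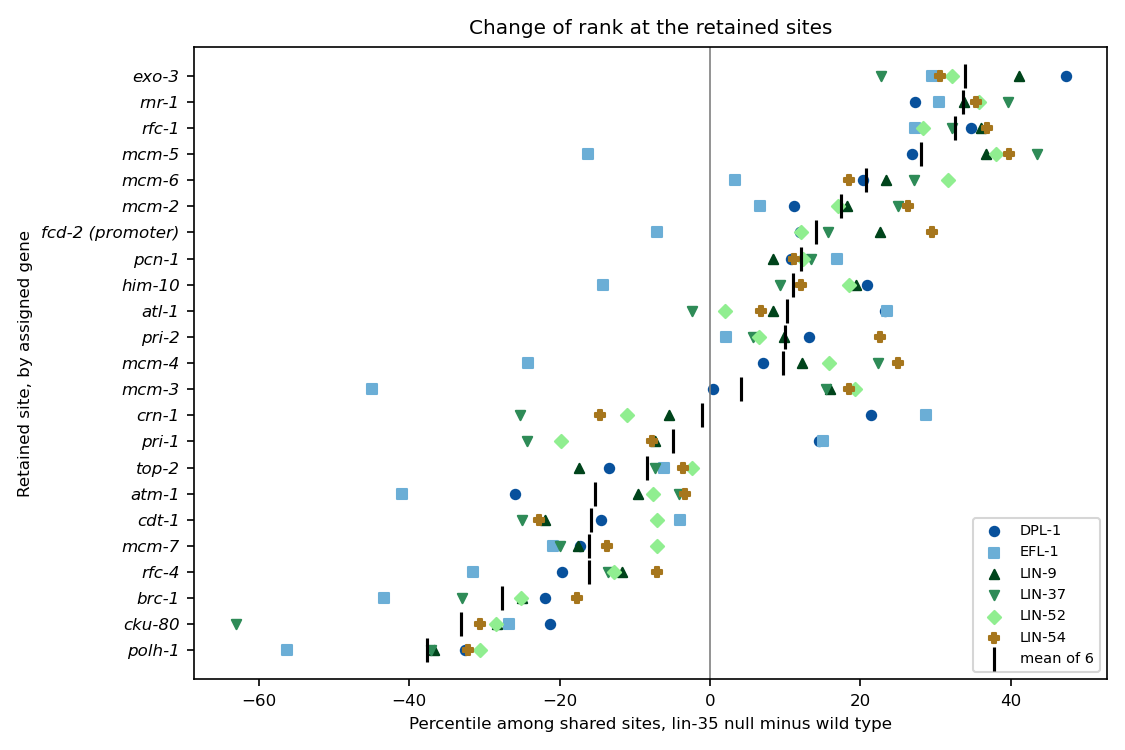
Difference in percentile among shared DRM sites, *lin-35* null minus wild type (x axis), for each of 6 subunits (symbols) and their mean (black bar) at the 23 retained sites (y axis, ordered by the mean). All symbols are right of 0 for 7 sites and left of 0 for 8, and the means run from -37.6 at *polh-1* to 33.9 at *exo-3*.

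The remaining 8 retained sites were mixed. At *mcm-3*, *mcm-4*, *mcm-5*, *him-10*, and the *fcd-2* promoter, EFL-1 was lower in *lin-35* null and the other 5 subunits higher. At *atl-1*, LIN-37 alone was lower. At *pri-1* and *crn-1*, both E2F-DP subunits were higher and all 4 MuvB subunits lower. Within the *lin-35* null lists, EFL-1 had the lowest percentile of the 6 subunits at 13 of the 23 retained sites and LIN-37 at 9, and over all 616 retained DRM sites the numbers were 367 and 191. These 2 subunits also had the shortest *lin-35* null lists.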

How the data were processed

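ChIP-seq of 7 DRM subunits in *C. elegans* late embryos was used as 13 deposited peak lists, 1 per subunit and genotype. Reads had been aligned to the ce10 build by the authors with Bowtie 1.1.2 (version per the submitters' processing notes), who called peaks against input with SPP, and kept peaks at 1% IDR over all replicates of a list. The deposited signal value of each peak, made by the authors, was turned into a percentile (100 times its rank over the list length). The column that the authors deposited on the −log10 scale was constant or nearly so and was used in no result.

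Positions of the 1418 DRM sites and the assignment of sites to genes and location types were read from the study's supplementary tables, and nothing else in them was used. The 46 samples were grouped by their labels. Of the 40 gene identifiers, 40 matched the reference names (WBcel235), used for symbols only, and 39 had the same symbol. *psf-1* had been placed with the licensing genes by name before this was seen, and the count of that group is given without it. Where several peaks overlapped a site, the highest was used. The overlap and retention steps were tested on simulated data and found 30 of 30 retained sites among 400. Python 3.11.15 with numpy 2.4.6, pandas 2.3.3, scipy 1.17.1, and matplotlib 3.10.9 was used.

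The genes, role groups, and lists were chosen with earlier results of these data known. Every gene could be named, and values in every list are given for the MCM genes, *cdc-6*, *cdt-1*, *pcn-1*, *rnr-1*, *rnr-2*, *rad-51*, *fcd-2*, and the highest and lowest site in wild type of each role group. For *pcn-1*, ranks stand in for the *lin-35* null percentiles. *exo-3* and *pri-1* were added, and sites of like height were paired, after their values were seen. No test was made. Alternatives varied the overlap, the peak width, the threshold and length of the lists, the percentile, and the definition of a retained site. Promoter letters were not searched, since no ce10 sequence was used here. LIN-35 ChIP in *lin-35* null, the input libraries, and coverage tracks were not analysed here.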

Additional observations from a re-analysis of the deposited data

How the results depend on the processing

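With an overlap of at least 50% of the shorter interval, peaks set to 200 bp around their summit, the lowest 25% of each list left out, or every *lin-35* null list shortened to 783 peaks (chosen after seeing the data), retained sites numbered 22 to 23, sites with all 6 subunits 20 to 23, and sites without a *lin-35* null peak 12 to 15. Over all 1418 DRM sites, these counts ran from 503 to 609, from 462 to 568, and from 386 to 584. Sites without a *lin-35* null peak numbered 12 of 42 with the lowest 25% left out, against 507 of 1418. With the lists of 783 peaks they numbered 15, against 584. In both settings the share was below that of all DRM sites, whereas it was above in the main setting (28.6% against 26.7%). Without *psf-1*, 11 of 41 sites had none in the main setting, which is near the share over all DRM sites. Counting any 1 subunit as retention gave 30 of 42 sites (71.4%) and 1040 of 1418 DRM sites (73.3%), so the share was then not above that of all DRM sites. Sites with all 7 subunits in wild type numbered 36 with the lowest 25% left out (1092 of the 1418 DRM sites) and 41 under the overlap and width alternatives. With wild-type lists shortened, 30 sites had all 6 subunits other than LIN-35 (736 of the 1418). The median wild-type percentile of 77.3 moved to 65.8 when ranked among DRM sites only (48.98 over all DRM sites) and to 59.7 with wild-type lists shortened (43.0 over all). The median difference between genotypes of -13.97 reversed to 3.83 with wild-type lists shortened and moved to -0.0225 among sites with a peak in both genotypes, the latter chosen after seeing the data. List length sets these percentiles by construction, and among sites with a peak in both genotypes rises and falls balance by construction. No paired analysis was possible because each list pools its replicates, and no replicate could be left out for the same reason. The study reported that the signal of a single *lin-35* null replicate appeared abnormally high. Without that replicate, the study found reduced binding at more of the DRM sites. Every *lin-35* null list used here pools that replicate with the others. How far the retained sites and the *lin-35* null ranks depend on that replicate was not tested. The depth behind a peak is unknown, so a missing peak means only that none passed the authors' threshold.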

Other observations

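Of 36 further genes of these pathways, listed by name outside the choice described above, 13 had a DRM site. The study's list held 1760 target genes, and their share of all worm genes was not computed, so this count has no background to be set against. All 13 sites had wild-type peaks of all 7 subunits, against 94.9% over all DRM sites. In *lin-35* null, 7 of the 13 were retained (43.4% over all DRM sites), 6 with all 6 subunits (40.6% over all DRM sites). These were *fan-1*, a crosslink repair nuclease (wild-type mean percentile 95.9, *lin-35* null mean 82.4), *hpr-17*, a checkpoint clamp loader (93.6 and 68.3), *tim-1*, a fork protection factor (91.9 and 80.9), *smc-5*, of the SMC-5/6 complex (78.8 and 63.1), *ung-1*, the uracil glycosylase (67.4 and 46.7), and *polq-1*, which shares the *him-10* site. *dna-2*, a helicase and nuclease of resection (89.7 and 22.7), was retained with 5. *smc-6*, the partner of *smc-5*, had a wild-type mean of 68.3 and *lin-35* null peaks of 2 subunits. *chk-1*, the checkpoint kinase that ATL-1 activates, had 76.3 and peaks of 4. *dut-1*, the dUTPase (54.2), and *spo-11*, which makes the breaks that start meiotic recombination (77.8), had no *lin-35* null peak. These were 2 of the 13 sites, where the share over all DRM sites was 26.7%. *fncm-1* and *hpr-9* had peaks of 3 and 1.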
